A study of Danio rerio with 1152 samples.

Results

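Cells of the zebrafish blastoderm margin that held GATA5 transcripts were set against margin cells in which none was counted. A well was kept where at least 2000 genes were detected, and a kept cell was called a margin cell where TA reached 1 UMI per 10000 UMIs of the cell (a UMI, or unique molecular identifier, marks 1 counted cDNA molecule). Of 1152 wells 1000 were kept, and 392 of these were margin cells. Margin cells with at least 2 GATA5 UMIs are called GATA5-positive (59 cells with 2 to 7 UMIs and 82 with 8 or more, together 35.97% of the 392). Those with none are called GATA5-negative (68, 64 and 91 cells in batches 1, 2 and 3), and 28 cells with exactly 1 were left out of the comparison. The remaining 608 kept cells lay below the TA threshold: 75 of them held at least 2 GATA5 UMIs, 33 held 1 and 500 held none.

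TA is the zebrafish Brachyury T-box gene, which marks the mesoderm-forming ring at the edge of the blastoderm. GATA5 encodes a zinc-finger transcription factor that acts downstream of Nodal in endoderm and heart formation, and its transcripts lie in the cell rows nearest the yolk. Nodal ligands made at the margin and in the extraembryonic yolk syncytial layer induce mesendoderm, Lefty proteins limit their range, and FGF and Wnt ligands carry mesoderm identity to cells farther from the edge.

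All cells came from embryos of TL/AB in-crosses, wild type as far as the labels say, at the 50% epiboly stage, when the blastoderm reaches the equator of the yolk. Blastoderm caps were freed of yolk and dissociated, and cells were picked by hand into plates. The labels give 3 experimental batches with equal numbers of wells, with no other group, and do not say how many embryos gave a batch or whether batches came from separate clutches. Each class was summed within each batch, and the batch is the replicate (n = 3).

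The GATA5-positive class had 42, 29 and 70 cells in batches 1, 2 and 3, and the GATA5-negative class had 68, 64 and 91. GATA5-positive cells made up 35.3%, 29.9% and 39.8% of margin cells in batches 1, 2 and 3. The Wilson 95% intervals, which cover counting error only, ran from 27.3 to 44.2, from 21.7 to 39.6 and from 32.8 to 47.1, and overlap. Margin cells were themselves a larger share of kept cells in batch 3 (49.3%) than in batch 1 (34.3%) or batch 2 (32.8%). The median total was 61830, 49891 and 40140 UMIs in GATA5-positive cells of batches 1 to 3, against 54152, 52507 and 38611 UMIs in GATA5-negative cells. Median detected genes were 3883, 3248 and 3528 in GATA5-positive cells and 3572, 3566 and 3147 in GATA5-negative cells, so GATA5-positive cells were the deeper class in batches 1 and 3 and the shallower one in batch 2. Kept totals ran from 5307 to 132749 UMIs. One pair of wells, a GATA5-negative margin cell of batch 1 and another of batch 2, had counts closer than sampling noise allows (chi-square of 0.50 per degree of freedom, with 1.09 for the next closest pair). They stayed in the sums, and a fit without both is given with the count of calls below.

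GATA5 and TA chose the cells, so their levels are a description only. GATA5 stood at 2.66, 4.32 and 4.12 UMIs per 10000 in GATA5-positive cells of batches 1, 2 and 3, and a GATA5-positive cell held a median of 7.5, 9 and 12 GATA5 UMIs, with the highest cell at 97. At the threshold, 28 margin cells held 1 GATA5 UMI, 14 held 2 and 18 held 3, while 82 held 8 or more. TA averaged 5.21 ± 2.34 UMIs per 10000 in GATA5-positive cells and 3.82 ± 0.56 in GATA5-negative cells (SD, n = 3 batches each), with batch 2 alone far apart at 7.84 against 4.15. Within 0.25 UMIs per 10000 above the TA threshold lay 40 cells, 10 of them GATA5-positive. Within 0.25 below it lay 46 cells, of which 10 held at least 2 GATA5 UMIs.

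GATA5-positive margin cells carried more transcript of Nodal ligands and their antagonist LFT2, of several lateral mesoderm regulators and of the presomitic regulators MSGN1 and MESPAB. Both apelin receptors and the Wnt antagonist DKK1B were higher too. The T-box and homeobox genes that mark the margin as a whole did not pass the test between the classes, apart from MIXL1. Some of these calls were lost when fewer GATA5-negative cells, matched in TA or in total UMIs, were used. Of 8332 genes tested besides GATA5 and TA, 32 were higher in GATA5-positive cells (0.384% of those tested) and 1 was lower (0.012%), or 0.396% in either direction, with edgeR's quasi-likelihood test, batch as a block and a Benjamini-Hochberg adjusted p under 0.05. All 33 differed in the same direction in each of the 3 batches, and for 32 of them the 3 GATA5-positive sums did not overlap the 3 GATA5-negative ones, which held for 7.99% of all tested genes. The median log2 difference over all tested genes was -0.02, and 495 genes had an unadjusted p under 0.05. The count of calls depended on batch 3: without it 6 genes were higher and 0 lower, without batch 1 these were 59 and 13, and without batch 2 they were 50 and 19. All 33 genes kept their direction without batch 3, and why calls were lost was not tested. The 6 called without batch 3 include APLNRB, DUSP4, MESPAB, CTH1 and a gene with a clone name that RefSeq lists as a synonym of DRL, and all 6 also stayed called under each of the other alternatives run. The other 27 calls, that of DRL itself among them, were lost without batch 3, which the losses given by gene below repeat only in part. Without the 2 near-identical wells 30 genes were higher and 1 lower. TA was itself higher in the GATA5-positive class, and when as many GATA5-negative cells as there were GATA5-positive ones were matched to them in TA, an alternative added after the data were seen, 10 of the 33 calls were lost, among them NDR1, LFT2, MSGN1, ALDH1A2, APLNRA and FGF8A. Matching in total UMIs lost 8 of the 33 and leaving out the batch block lost 11. Both matchings also cut the number of GATA5-negative cells, and no unmatched subset of that size was fitted. Losses from matching and losses from fewer cells therefore cannot be told apart.

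**Figure D1:**
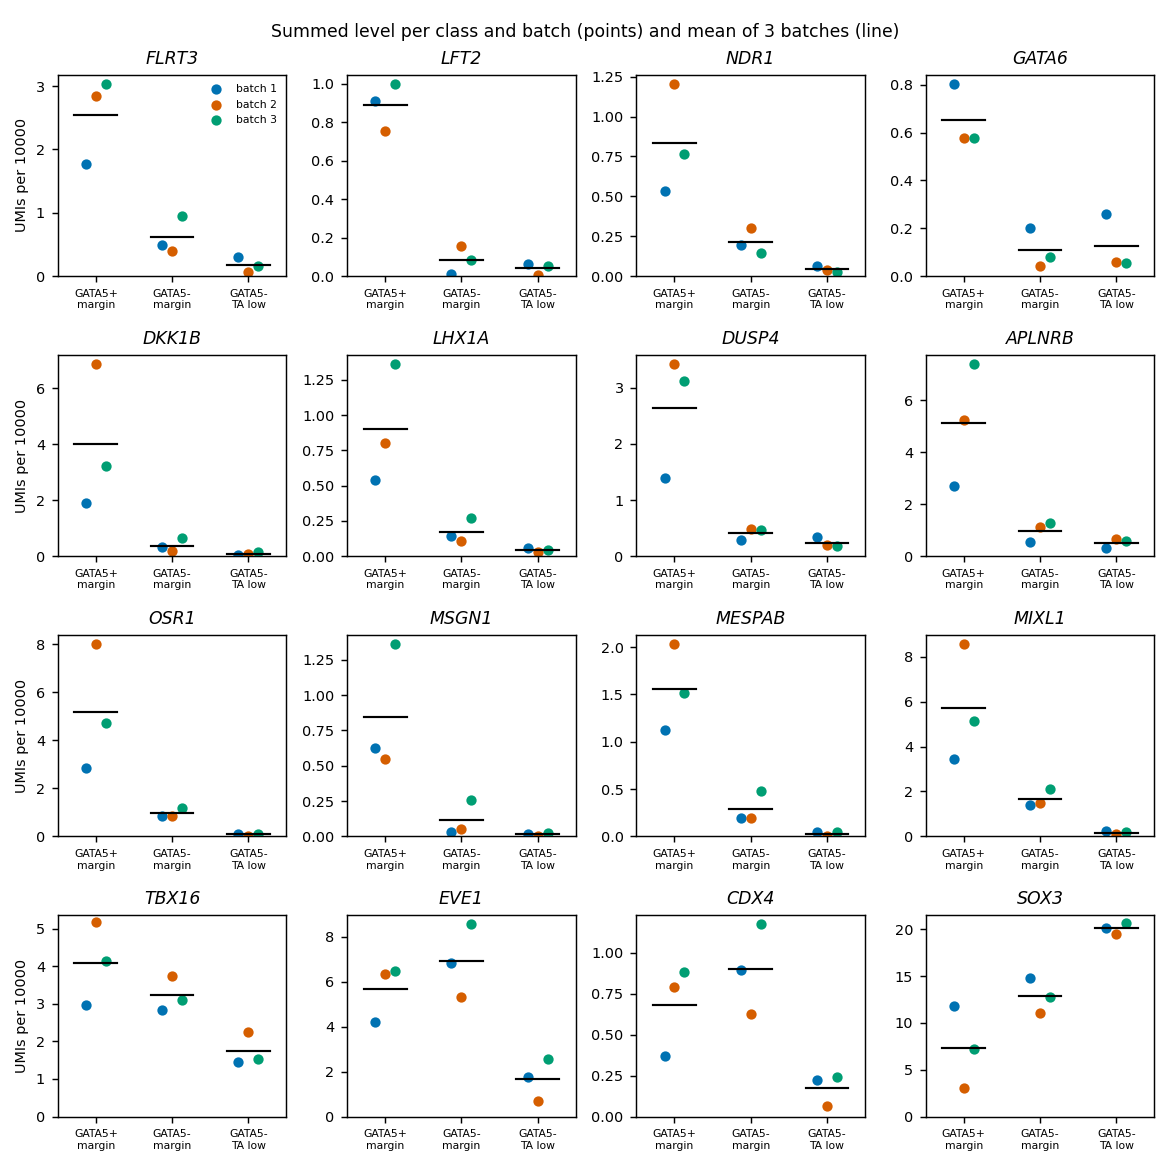
Summed level in UMIs per 10000 (vertical axes, from 0) of 16 genes in GATA5-positive margin cells, GATA5-negative margin cells and GATA5-negative cells below the TA threshold, with 1 point per batch and a line at the mean of 3 batches. DUSP4 lies between 1.39 and 3.42 in GATA5-positive cells and at or below 0.478 in GATA5-negative margin cells, while the points of TBX16, EVE1 and CDX4 overlap between both margin classes.

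Among the Nodal genes, 5 of 15 tested were higher and 0 lower, with a median log2 difference of 0.88. Lists share members, so the counts by list repeat some calls. MIXL1, given with the endoderm regulators, is 1 of these 5. The ligand NDR1 (Squint) had 0.535, 1.2 and 0.767 UMIs per 10000 in GATA5-positive cells, against 0.198, 0.301 and 0.142 in GATA5-negative cells, a 3.82-fold difference (adjusted p = 0.022). The other ligand on the list, NDR2 (Cyclops), was 3.65-fold higher (adjusted p = 0.0208). For both ligands the lowest GATA5-positive batch exceeded the highest GATA5-negative one. NDR1 lost its call with GATA5-negative cells matched in TA (log2 1.77, adjusted p = 0.0662) or in total UMIs (1.48, 0.172) and with TA at 2 or more UMIs per 10000 (1.48, 0.153), and NDR2 lost it with no batch block (adjusted p = 0.0525). Without batch 3 both calls were lost (adjusted p = 0.4 for NDR1 and 0.352 for NDR2).

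The secreted Nodal antagonist LFT2 (Lefty2) had 0.908, 0.755 and 0.998 UMIs per 10000 in GATA5-positive cells, against 0.0103, 0.156 and 0.084 in GATA5-negative cells. GATA5-negative margin cells of batch 1 held almost none, and the 12.8-fold difference (SE of the log2 difference 0.58, adjusted p = 0.0263) was 2.90 on the log2 scale without batch 1 and 4.53 without batch 2. The LFT2 call was lost without batch 3 (log2 3.81, adjusted p = 0.49) and with GATA5-negative cells matched in TA (log2 2.92, adjusted p = 0.154) or in total UMIs (3.17, 0.166). LFT1 stood at 0.454, 0.463 and 0.576 UMIs per 10000 against 0.139, 0.268 and 0.113 and did not pass (adjusted p = 0.268). The actin-bundling gene FSCN1A, listed as a Nodal target, was the most abundant called member of the list. It had 15.2, 20.5 and 18.9 UMIs per 10000 in GATA5-positive cells against 9.57, 10.1 and 9.32 in GATA5-negative cells, a 1.84-fold difference (adjusted p = 0.000877). The co-receptor gene TDGF1 (adjusted p = 0.739), the transcriptional partner FOXH1 (0.743) and the signal transducer SMAD2 did not pass.

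Endoderm regulators divided. Of 7 tested, 3 were higher and 0 lower, with a median log2 difference of 1.41. GATA6, a relative of GATA5 used in endoderm and heart, had 0.805, 0.578 and 0.579 UMIs per 10000 in GATA5-positive cells against 0.203, 0.0443 and 0.0811 in GATA5-negative cells, 6.69-fold higher (adjusted p = 0.0173). The GATA6 call was lost with cells matched in total UMIs (adjusted p = 0.0776) and without batch 3 (0.352). The forkhead gene FOXA3 was 2.65-fold higher (adjusted p = 0.0069). MIXL1, a Mix-type homeobox gene of mesendoderm, had 3.45, 8.55 and 5.12 UMIs per 10000 against 1.4, 1.48 and 2.1, 3.2-fold higher (adjusted p = 0.0084).

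SOX32, the Sox factor that commits cells to endoderm, had 0.21, 0.524 and 0.844 UMIs per 10000 in GATA5-positive cells against 0.164, 0.00295 and 0.113 in GATA5-negative cells. The groups did not overlap, but the gap was narrow in batch 1 and very wide in batch 2, and the 6.55-fold difference did not pass (adjusted p = 0.595). SOX17, which acts after SOX32, fell under the detection filter: 22 UMIs lay in 7 GATA5-positive cells and 1 UMI in 1 GATA5-negative cell. FOXA2 was low in both classes and did not pass (1.03-fold, adjusted p = 0.997), and SEBOX, another Mix-type gene, was at 1.16-fold (adjusted p = 0.955).

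Of 20 listed lateral, intermediate and cardiac mesoderm genes 9 were tested. Of these 6 were higher and 0 lower, with a median log2 difference of 2.29. GATA6, given with the endoderm regulators, is 1 of these 6. APLNRB, a receptor for the apelin and Toddler peptides that guide mesendoderm movement, had the smallest adjusted p of all genes. It stood at 2.69, 5.25 and 7.4 UMIs per 10000 in GATA5-positive cells against 0.552, 1.13 and 1.27 in GATA5-negative cells, 5.03-fold higher (log2 2.33, SE 0.12, adjusted p = 1.16e-05). Each class had its lowest value in batch 1 and its highest in batch 3, so the ratio varied little. Its paralogue APLNRA was 2.65-fold higher (adjusted p = 0.0263). The APLNRA call was lost with cells matched in TA (log2 1.19, adjusted p = 0.153) or in total UMIs (1.19, 0.166), with TA at 2 or more UMIs per 10000 (0.94, 0.545), without batch 3 (1.32, 0.646) and with no batch block (1.44, 0.0975).

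OSR1, a zinc-finger gene of lateral and intermediate mesoderm, had 2.85, 8 and 4.72 UMIs per 10000 in GATA5-positive cells against 0.856, 0.853 and 1.18 in GATA5-negative cells, 4.9-fold higher (adjusted p = 0.00267). LHX1A, a LIM homeobox gene of organizer and intermediate mesoderm, was 5.07-fold higher (adjusted p = 0.0069), at 0.539, 0.803 and 1.36 against 0.141, 0.109 and 0.272 UMIs per 10000. Without batch 3 the LHX1A call was lost (adjusted p = 0.342). DRL (draculin), a zinc-finger gene of the lateral plate, was 2.61-fold higher (adjusted p = 0.00219). Without batch 3 DRL lost its call (log2 1.32, adjusted p = 0.0797), while the gene with the clone name kept its own. The gene with the clone name was called too, but RefSeq (GRCz12tu) lists that name as a synonym of DRL, so its counts and those of DRL may share reads and are not separate observations. MESPAA was 8.59-fold higher and LMO2, a blood and vessel factor, 0.98-fold, and neither passed (adjusted p = 0.0849 and 0.999).

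Among presomitic and segmentation genes 3 of 15 tested were higher and 0 lower, with a median log2 difference of 0.57. MSGN1, a helix-loop-helix regulator of presomitic mesoderm, had 0.624, 0.544 and 1.36 UMIs per 10000 in GATA5-positive cells against 0.0334, 0.0531 and 0.255 in GATA5-negative cells, 9.16-fold higher (adjusted p = 0.0049). Batch 3 was the highest in both classes. MSGN1 lost its call with cells matched in TA (log2 2.87, adjusted p = 0.0618) and with no batch block (2.87, 0.0997). MESPAB, a related factor used in segment formation, had 1.13, 2.03 and 1.52 UMIs per 10000 against 0.195, 0.195 and 0.481, 5.54-fold higher (adjusted p = 0.00692). MESPBA had 7 UMIs in the GATA5-negative class and missed the threshold (29.1-fold, adjusted p = 0.0717).

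The third called member, ALDH1A2, makes retinoic acid and was also the 1 gene of 9 tested retinoic acid genes that was higher (3.73-fold, adjusted p = 0.0376). It lost its call when GATA5-negative cells were matched to GATA5-positive cells in TA or in total UMIs (adjusted p = 0.0853 and 0.077), with GATA5 at 1 or more UMIs (0.0516) and with no batch block (0.0658). The T-box gene TBX6 (1.9-fold, adjusted p = 0.604) and the segmentation clock gene HER7 (0.77-fold, 0.667) did not pass. Nor did the Notch ligand genes DLC (log2 -0.59, adjusted p = 0.929) and DLD (log2 -0.40, 0.912), and DLD was lower in each batch.

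Of 16 tested FGF genes 3 were higher and 0 lower, with a median log2 difference of 0.16. DUSP4, a phosphatase that limits MAP kinase signalling, had 1.39, 3.42 and 3.12 UMIs per 10000 in GATA5-positive cells against 0.28, 0.478 and 0.466 in GATA5-negative cells, 6.14-fold higher (adjusted p = 0.000122). FGF8A, a ligand of the margin, was 2.65-fold higher (adjusted p = 0.022) and FLRT3, a leucine-rich repeat membrane protein made in response to FGF, was 4.21-fold higher (adjusted p = 0.00272). FGF8A lost its call with cells matched in TA (log2 1.01, adjusted p = 0.0911) and with no batch block (adjusted p = 0.155). The FGF feedback genes DUSP6 (1.15-fold, adjusted p = 0.94) and SPRY2 (0.90-fold, 0.978) did not pass. The ETS factors ETV4 (log2 -0.24, adjusted p = 0.859) and ETV5B (log2 -0.29, 0.554) were lower in each batch and did not pass either.

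The Wnt list had 2 of 21 tested genes higher and 0 lower, with a median log2 difference of 0.80. DKK1B, a secreted antagonist of Wnt co-receptors, had 1.91, 6.85 and 3.24 UMIs per 10000 in GATA5-positive cells against 0.316, 0.171 and 0.64 in GATA5-negative cells, 9.69-fold higher (log2 3.28, adjusted p = 0.0162). Batch 2 was highest in the GATA5-positive class and lowest in the GATA5-negative class, and without it the log2 difference was 2.43. NDR2, a Nodal ligand placed on this list too, was the other call.

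The ligand WNT11 had 7.14, 15.1 and 4.99 UMIs per 10000 against 5.61, 5.88 and 5.34, overlapping between the classes (adjusted p = 0.803). WNT8A was 2.37-fold and WNT8-2 2.28-fold higher and neither passed (adjusted p = 0.288 and 0.277). RefSeq places both names at the same locus, so their counts may share reads. FRZB, another secreted Wnt antagonist, stood at 14.1-fold, with 32 UMIs in the GATA5-negative class, and did not pass (adjusted p = 0.309).

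Of 7 tested T-box and homeobox genes of the margin only MIXL1 was called, and the median log2 difference was 0.09. TBX16, a T-box gene needed for mesoderm movement, had 2.97, 5.18 and 4.13 UMIs per 10000 in GATA5-positive cells against 2.84, 3.75 and 3.09 in GATA5-negative cells (1.23-fold, adjusted p = 0.743). EVE1, a homeobox gene of the ventral margin, had 4.2, 6.35 and 6.5 UMIs per 10000 against 6.84, 5.33 and 8.58 (log2 -0.31, SE 0.15, adjusted p = 0.859). In TBX16 and EVE1 the batches of both classes overlap. The caudal homeobox gene CDX4 (adjusted p = 0.912), the notochord gene NOTO (0.449) and VRTN (0.941) did not pass either.

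Among organizer genes 3 of 11 tested were higher, namely FOXA3, DKK1B and LHX1A, and 0 lower. The BMP antagonist CHD had 0.805, 1.08 and 1.61 UMIs per 10000 in GATA5-positive cells against 0.994, 1.11 and 0.738 in GATA5-negative cells, overlapping (adjusted p = 0.944), and GSC, the homeobox gene of the dorsal organizer, did not pass (3.16-fold, adjusted p = 0.7). None of 19 tested ventral and BMP genes was called in this edgeR fit (median log2 -0.13). Within that list the BMP target ID1 had 25.4, 11.7 and 25.4 UMIs per 10000 against 35.1, 37 and 37.9 (log2 -0.91, adjusted p = 0.0781), and its relative ID3 had 0.192, 1.04 and 1.41 against 0.0976, 0.212 and 0.362 (log2 1.77, adjusted p = 0.0525). The classes did not overlap in ID1 and overlapped in ID3, the differences had opposite signs, and neither gene passed.

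Adhesion and movement genes had 6 of 25 tested higher and 0 lower, with a median log2 difference of 0.37. Beside both apelin receptors and FLRT3 these were SNAI1A, KIRREL3L and RND1L. The Snail repressor SNAI1A, which lowers cadherin expression in moving mesoderm, had 10.2, 13.2 and 14.9 UMIs per 10000 in GATA5-positive cells against 5.54, 5.19 and 5.83 in GATA5-negative cells, 2.25-fold higher (adjusted p = 0.000592). KIRREL3L, an immunoglobulin-type adhesion protein gene, was 4.53-fold higher (adjusted p = 0.0193), and RND1L was 3.56-fold higher (adjusted p = 0.0286). KIRREL3L lost its call with cells matched in total UMIs (adjusted p = 0.0676) and with no batch block (0.126). Without batch 3 KIRREL3L and RND1L both lost theirs (0.393 and 0.352). The chemokine receptor genes CXCR4A (8.33, 3.31 and 9.44 against 9.41, 9.32 and 8.78 UMIs per 10000) and CXCR4B (6.98, 2.91 and 5.2 against 8.32, 9.04 and 7.98) did not pass (adjusted p = 0.828 and 0.234).

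Of 23 tested ectoderm genes 1 was higher and 0 lower, with a median log2 difference of -0.26. That gene, ZIC2A, a zinc-finger gene of neural tissue, had 2.18, 4.85 and 4.04 UMIs per 10000 in GATA5-positive cells against 0.838, 0.746 and 0.999 in GATA5-negative cells, 4.03-fold higher (adjusted p = 0.00272). Its near relative ZIC2B had 10, 4.43 and 8.61 against 12.1, 10.3 and 12 UMIs per 10000 and did not pass (log2 -0.67, adjusted p = 0.135). SOX3, a SoxB1 gene of early ectoderm, had 11.8, 3.01 and 7.26 UMIs per 10000 against 14.8, 11.1 and 12.8. It was below its GATA5-negative counterpart in each batch, by most in batch 2, and did not pass (log2 -1.0, SE 0.21, adjusted p = 0.144).

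**Figure D2:**
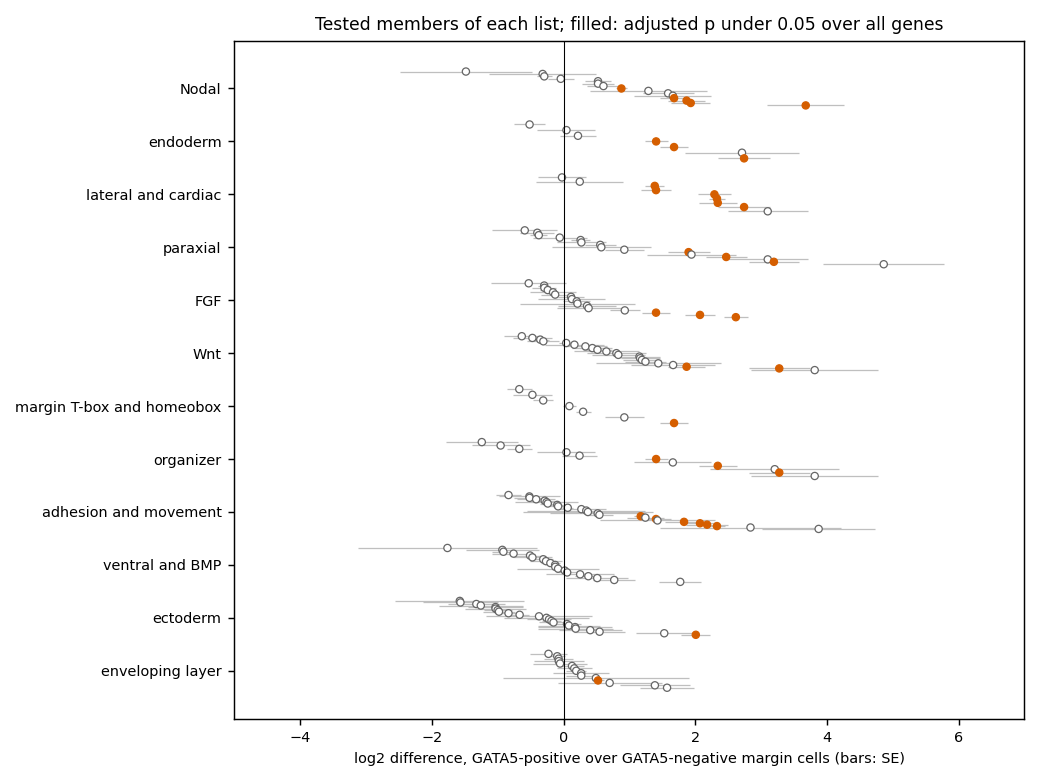
Log2 difference between GATA5-positive and GATA5-negative margin cells (horizontal axis, bars are SE) of each tested member of 12 gene lists (rows), filled where the adjusted p over all genes is under 0.05. Filled points lie right of 0 in every list that has one, with 6 each in the lateral and cardiac list and the adhesion and movement list and none in the ventral and BMP list.

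Other called genes stood on no list or on lists of other sources. CTH1, a zinc-finger gene of the CCCH type on the list of maternal factors, had 7, 11.4 and 10.3 UMIs per 10000 in GATA5-positive cells against 3.34, 3.68 and 3.84 in GATA5-negative cells, 2.56-fold higher (adjusted p = 0.000439). MIXL1 was the other call among 12 tested maternal factors, while NANOG (1.07-fold, adjusted p = 0.911) and POU5F3 (0.90-fold, 0.743) did not pass. IRX3A, an Iroquois homeobox gene, was 12.3-fold higher, with 39 UMIs in the GATA5-negative class (log2 3.63, adjusted p = 0.0483). Unthinned, IRX3A was detected in 33.3% of GATA5-positive and 4.04% of GATA5-negative margin cells. It thus passed the 5% detection filter only through the GATA5-positive class in which it is high. Its log2 difference was 3.00 without batch 1 and 4.51 without batch 3, and the call was lost under 7 of 21 alternatives, with adjusted p from 0.0505 to 0.166, among them both matchings.

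CYP27C1, which modifies vitamin A, was 2.5-fold higher (adjusted p = 0.0126), and TRIB3, a stress-responsive pseudokinase, was 2.61-fold higher (adjusted p = 0.0173). Clone names SI:DKEY-261J4.3 (2.51-fold, adjusted p = 0.027) and SI:DKEY-261J4.4 (2.53-fold, 0.022) had levels close to each other in each batch. CYP27C1 and TRIB3 lost their calls with cells matched in TA (adjusted p = 0.0662 and 0.153), both clone names lost theirs with no batch block (0.0525 each), and SI:DKEY-261J4.3 also with TA at 2 or more UMIs per 10000 (0.0872). Without batch 3 CYP27C1, TRIB3 and both clone names lost their calls (adjusted p from 0.356 to 0.481). The only gene called lower was ASB11, an ankyrin-repeat ubiquitin ligase subunit that acts on Delta proteins. It had 2.79, 2.91 and 2.05 UMIs per 10000 in GATA5-positive cells against 4.25, 4.36 and 3.35 in GATA5-negative cells, a log2 difference of -0.65 (adjusted p = 0.0254). ASB11 lost its call under 5 of 21 alternatives, namely without batch 3 (adjusted p = 0.413), without keratin-rich cells (0.0757), with TA at 2 or more UMIs per 10000 (0.0604), with limma (0.0509) and with no batch block (0.313).

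Markers of neighbouring cell types differed in part. The 15 enveloping layer genes summed to 24.7, 17.6 and 14.9 UMIs per 10000 in GATA5-positive cells and to 17.2, 16.7 and 14.02 in GATA5-negative cells, with no gene at 0. Only KRT18 among them was called. It had 8.78, 5.03 and 5.33 UMIs per 10000 against 5.26, 3.76 and 3.86, overlapping ranges, and its 1.44-fold difference (adjusted p = 0.0483) was lost under 13 of 21 alternatives, among them the fit without keratin-rich cells (adjusted p = 0.934). Without those cells 47 genes were called higher and 9 lower.

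The 10 yolk syncytial layer genes in the table summed to 12.1, 18.2 and 14.6 UMIs per 10000 in GATA5-positive cells and to 11.1, 7.34 and 10.9 in GATA5-negative cells, and APOA2 was at 0 in GATA5-positive cells. Of 7 tested genes of this list all lay above 0, with a median log2 difference of 1.41 and a lowest of 0.23, against a median of -0.02 over all tested genes, and the 1 call was GATA6. The detection filter pools both classes, so a low gene can be tested because GATA5-positive cells hold it. In the comparison of GATA5-negative cells below, 5 genes of this list passed the filter. The shared direction of the 7 is therefore a description only. The layer's regulators HNF4A (0.177, 0.197 and 0.00669 against 0.0463, 0.0413 and 0.00869) and MXTX2 (0.207, 0.197 and 0.0268 against 0.134, 0.0856 and 0.0695) were near 0 and did not pass. The part of that layer's RNA in the differences was not tested. In the edgeR fit none of the tested p53 and stress (15), germ cell (9), G2 and M phase (19) and housekeeping (15) genes was called. The G2 and M phase genes summed to 54.7, 54.8 and 55.6 UMIs per 10000 in GATA5-positive cells and to 55.3, 52.4 and 56.7 in GATA5-negative cells.

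Margin cells were split into bands of 0, 1, 2 to 7 and 8 or more GATA5 UMIs, the upper 3 with 28, 59 and 82 cells. This split uses the gene that chose the cells and is given without a test. LFT2 averaged 0.0835, 0.206, 0.321 and 1.28 UMIs per 10000 in these bands, APLNRB 0.984, 2.62, 2.49 and 6.86, and DUSP4 0.408, 1.30, 0.910 and 3.74. In all 3 genes the band of 8 or more was the highest in the mean, and in APLNRB and DUSP4 the band of 1 lay above that of 2 to 7, though not in batch 3. OSR1 averaged 0.964, 1.86, 3.13 and 6.53, MIXL1 1.66, 3.06, 4.07 and 6.79, and SOX32 0.0934, 0.320, 0.347 and 0.641. TBX16 (3.23, 3.01, 3.86 and 4.26) and EVE1 (6.92, 6.61, 4.64 and 6.33) overlapped between batches of all bands, and SOX3 averaged 12.9, 10.0, 9.33 and 6.07. The band of 1 UMI had 9, 4 and 15 cells in the 3 batches, so its values rest on few cells.

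**Figure D3:**
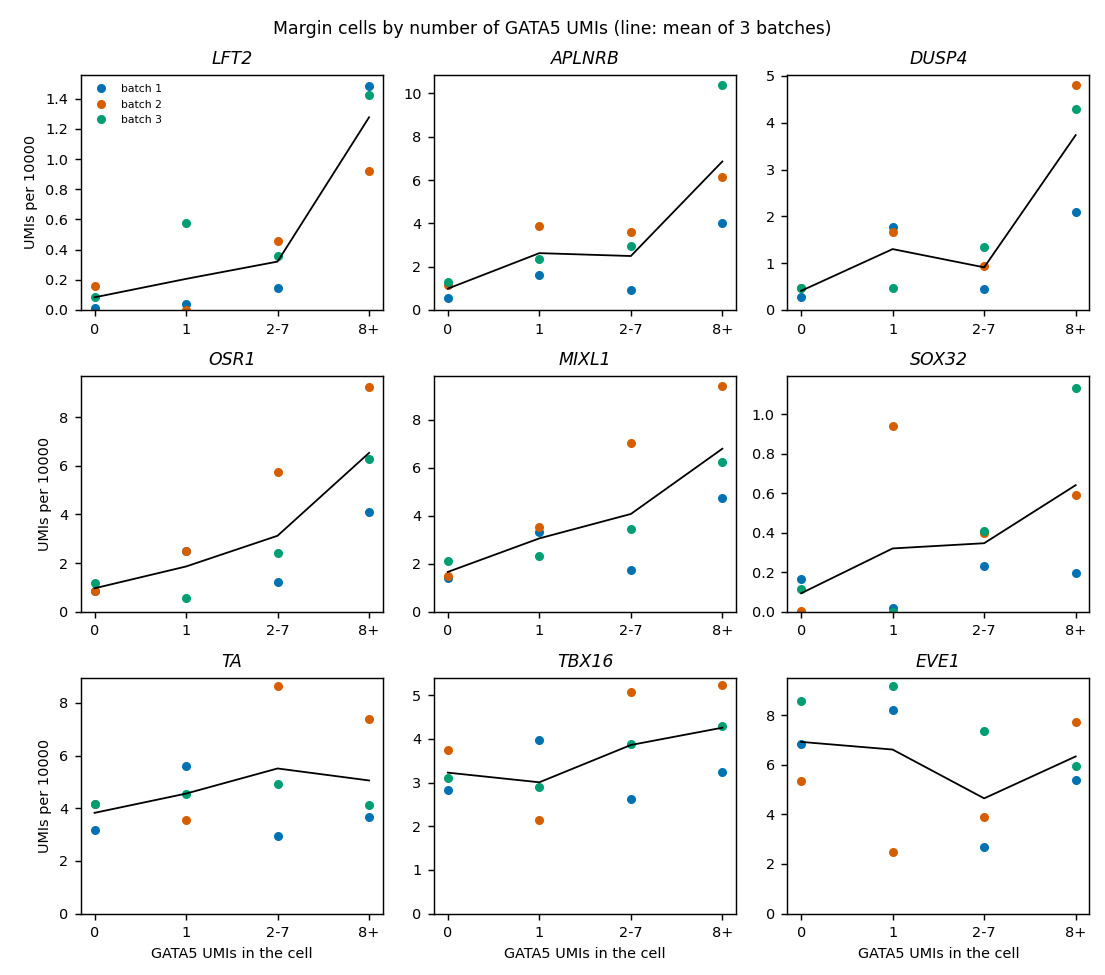
Level in UMIs per 10000 (vertical axes, from 0) of 9 genes in margin cells with 0, 1, 2 to 7 and 8 or more GATA5 UMIs (horizontal axes), 1 point per batch with a line through the mean of 3 batches. LFT2, APLNRB and DUSP4 are highest at 8 or more, with means of 1.28, 6.86 and 3.74, while TBX16 and EVE1 overlap across the bands.

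A summed level does not tell the share of cells with a transcript from the amount per cell, so shares were taken after each cell was thinned to 15000 UMIs, which left out 2 shallower GATA5-positive and 5 GATA5-negative margin cells and 25 GATA5-negative cells below the TA threshold. The shares pool the cells of the 3 batches unless a batch is named. OSR1 was detected in 75.5% of GATA5-positive cells, 28.4% of GATA5-negative margin cells and 7.79% of cells below the threshold. For APLNRB these shares were 74.1%, 35.3% and 17.1%, and for MSGN1 37.4%, 8.26% and 1.05%. GATA6 was detected in 35.3%, 5.50% and 8.21%, so its pooled share in GATA5-negative margin cells was no higher than in GATA5-negative cells below the TA threshold. In batches 1, 2 and 3, OSR1 was detected in 53.7%, 89.3% and 82.9% of GATA5-positive and 23.9%, 27.4% and 32.6% of GATA5-negative margin cells. MSGN1 was detected in 17.1%, 35.7% and 50% against 4.48%, 4.84% and 13.5%. Unthinned, MSGN1 was detected in 48.2% of GATA5-positive and 9.87% of GATA5-negative margin cells and APLNRB in 82.3% and 39.9%. TBX16 was detected in 94.2% of GATA5-positive and 85.3% of GATA5-negative margin cells after thinning.

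**Figure D4:**
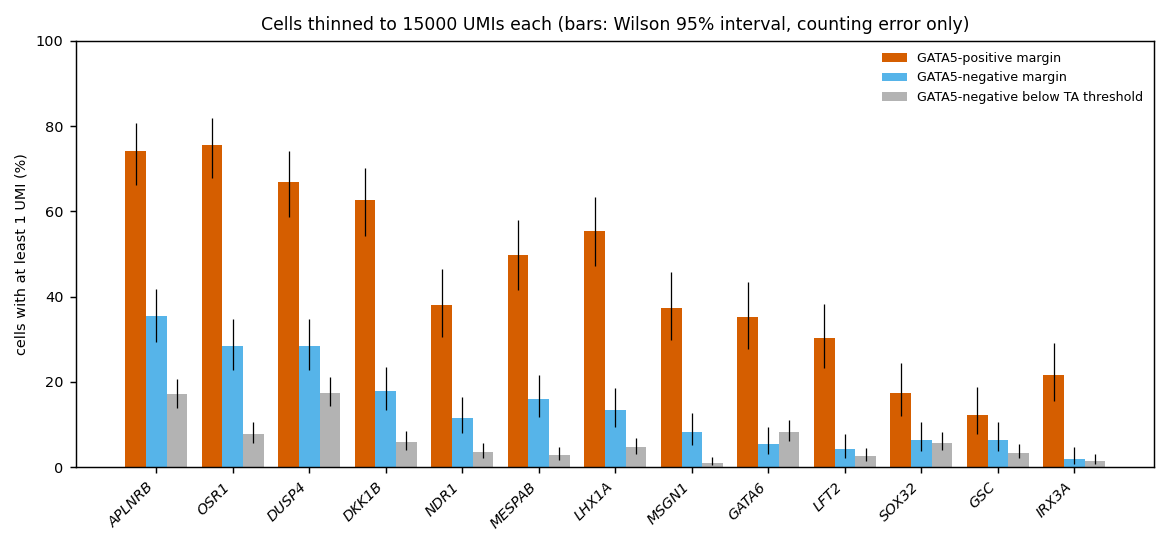
Percent of cells with at least 1 UMI of each of 13 genes (vertical axis, from 0) after thinning to 15000 UMIs per cell, in GATA5-positive margin cells, GATA5-negative margin cells and GATA5-negative cells below the TA threshold, with Wilson 95% intervals for counting error. OSR1 stands at 75.5%, 28.4% and 7.79% and MSGN1 at 37.4%, 8.26% and 1.05%. Each share pools the cells of all batches, and the intervals do not cover differences between batches.

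GATA5-positive cells differed in the genes detected in them, and how much of this comes from missed transcripts was not tested. Of 9 genes high in the class (LFT2, OSR1, APLNRB, DUSP4, MSGN1, GATA6, MESPAB, LHX1A and NDR1, picked after their values were seen), a thinned GATA5-positive cell held a median of 5, with quartiles at 2.5 and 7, and a GATA5-negative margin cell a median of 1, with quartiles at 0 and 2. None of the 9 was detected in 6 GATA5-positive cells (4.32%) and in 68 GATA5-negative ones (31.2%). Since the 9 were picked as high in the GATA5-positive class, its higher counts follow from the choice. Among the thinned GATA5-positive cells, 94 had both OSR1 and APLNRB, and APLNRB was in 89.5% of cells with OSR1 and 26.5% of those without. MSGN1 was detected in 10 of the 24 cells with SOX32 (41.7%, against 36.5% of cells without SOX32) and in 4 of the 17 cells with GSC (23.5%, against 39.3% of cells without GSC). OSR1 was detected in 20 of those 24 cells with SOX32 (83.3%, against 73.9% without) and in 15 of those 17 cells with GSC (88.2%, against 73.8% without). These shares pool the cells of all batches and were not tested. APLNRB was detected in 53.7%, 85.7% and 81.4% of thinned GATA5-positive cells in batches 1, 2 and 3. For OSR1 these were 53.7%, 89.3% and 82.9%. The part of batch and of GATA5 level in the co-occurrence was not tested. Detection at this depth misses transcripts, so co-occurrence can be higher than counted.

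The GATA5-negative margin cells were next compared with the 500 GATA5-negative cells below the TA threshold. TA level separates these groups, so genes that go with TA can differ through the choice of cells. A cell with no counted GATA5 UMI may still hold the transcript. This comparison shares the GATA5-negative margin cells with the one above, and the values of each stand side by side with no joint test. Of 8103 genes tested 66 were higher in GATA5-negative margin cells (0.815%) and 11 were lower (0.136%), or 0.95% in either direction, with a median log2 difference of -0.01 over all tested genes and 513 genes at an unadjusted p under 0.05. All 77 had 1 direction in the 3 batches, and without batch 3 the counts were 38 and 4.

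All 7 tested T-box and homeobox genes of the margin were higher, with a median log2 difference of 2.01. EVE1 had 6.84, 5.33 and 8.58 UMIs per 10000 in GATA5-negative margin cells against 1.74, 0.673 and 2.56 below the threshold (4.68-fold, adjusted p = 2.63e-05). TBX16 was 1.88-fold (adjusted p = 0.000258) and CDX4 5.56-fold higher (adjusted p = 0.000258). WNT11 had 5.61, 5.88 and 5.34 UMIs per 10000 against 0.758, 0.389 and 0.665, 9.64-fold higher (adjusted p = 4.21e-07), and SEBOX was 11.6-fold higher (adjusted p = 6.79e-07). Of the Wnt genes 7 of 19, of the presomitic and segmentation genes 7 of 11 and of the ventral and BMP genes 6 of 18 were higher, with 0 lower in each of these lists. CDX4 is counted in the margin, Wnt and ventral lists, and EVE1 in the margin and ventral lists. The Wnt calls include the Nodal ligand NDR2, and also WNT8A and WNT8-2, whose counts may share reads. Without batch 3 the calls of DKK1B, LEF1, NDR2, MESPAB, DLD, TBX6, PCDH8 and MSXB were lost (adjusted p from 0.0755 to 0.732).

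Some genes were called in both comparisons. MIXL1 was 3.2-fold higher in GATA5-positive than in GATA5-negative margin cells and 9.91-fold higher in GATA5-negative margin cells than below the threshold (adjusted p = 4.4e-06). OSR1 was 4.9-fold and 12.7-fold higher (adjusted p = 4.64e-05 in the second comparison), and NDR1 3.82-fold and 4.98-fold (adjusted p = 0.0265). NDR1 lost its call in the second comparison without each batch in turn (adjusted p from 0.0542 to 0.205) and with no batch block (0.0613). Others were called in the first comparison and did not pass in the second: LFT2 (1.85-fold, adjusted p = 0.937), DUSP4 (1.73-fold, 0.756), GATA6 (0.95-fold, 0.987), APLNRA (1.29-fold, 0.87), RND1L (1.14-fold, 0.933) and CTH1 (1.21-fold, 0.346). The difference between the comparisons was not tested.

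Among ectoderm genes 1 was higher and 3 were lower in GATA5-negative margin cells. SOX3 had 14.8, 11.1 and 12.8 UMIs per 10000 there against 20.2, 19.5 and 20.6 below the threshold (log2 -0.64, adjusted p = 0.000258). SOX19A (log2 -0.46, adjusted p = 0.0127) and CXCR4B (log2 -0.31, adjusted p = 0.0259) were also lower. ZIC2A was higher (2.85-fold, adjusted p = 0.0142). Without batch 3 ZIC2A and SOX19A lost their calls (adjusted p = 0.156 and 0.16), CXCR4B lost its call without each batch in turn (0.0897 to 0.197), and with no batch block SOX3, SOX19A and CXCR4B lost theirs (0.0868, 0.866 and 0.9997).

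A further comparison, added after the data were seen, set the GATA5-positive margin cells against the 75 GATA5-positive cells below the TA threshold. It shares the GATA5-positive margin cells with the first comparison. Of 8683 genes tested 4 were higher in GATA5-positive margin cells (0.0461%) and 2 were lower (0.023%), or 0.0691% in either direction. The counts were 5 and 1 without batch 1, 13 and 5 without batch 2, and 18 and 15 without batch 3. The group below the threshold has 33, 16 and 26 cells in the 3 batches. TA level separates these groups, and the labels give no position of a cell. After thinning and with batches pooled, MIXL1 was detected in 59.7% and EVE1 in 56.9% of GATA5-positive cells below the threshold. In GATA5-positive margin cells these shares were 86.3% and 84.2%.

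The 4 higher genes were WNT11 (4.47-fold, adjusted p = 0.000212), the helix-loop-helix gene HES6 (2.55-fold, 0.00251), MIXL1 (2.37-fold, 0.026) and TBX16 (2.3-fold, 0.0297). SOX32 was lower, at 0.21, 0.524 and 0.844 UMIs per 10000 in GATA5-positive margin cells against 0.946, 2.14 and 2.22 in GATA5-positive cells below the threshold (log2 -1.87, SE 0.26, adjusted p = 0.021). CXCR4A, a chemokine receptor that endoderm cells use in migration, was lower too, at 8.33, 3.31 and 9.44 against 13.7, 10.6 and 16 (log2 -1.06, adjusted p = 0.047). The levels of SOX32 and CXCR4A did not overlap between the groups. After thinning and with batches pooled, SOX32 was detected in 17.3% of GATA5-positive margin cells and 25% of GATA5-positive cells below the threshold. In batches 1, 2 and 3 these shares were 14.6%, 14.3% and 20% against 25%, 31.3% and 20.8%, and they were not tested. CXCR4A lost its call when GATA5 and TA were left out of the adjustment, which left 1 gene called lower. MIXL1, SOX32 and CXCR4A lost their calls without batch 1 (adjusted p = 0.243, 0.138 and 0.102), and SOX32 lost its call also when cells were thinned (0.113). With no batch block 5 of the 6 calls were lost, and HES6 kept its call.

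SOX17 was at 0 UMIs in the 75 cells below the threshold, against 22 UMIs in GATA5-positive margin cells. Several genes called between GATA5-positive and GATA5-negative margin cells did not pass between the GATA5-positive groups, and their batches overlapped. DUSP4 had 1.39, 3.42 and 3.12 UMIs per 10000 above the TA threshold against 1.99, 1.81 and 2.94 below it (adjusted p = 0.999). GATA6 and DKK1B did not pass either (adjusted p = 0.999 each). Other genes called in the first comparison stood higher above the TA threshold here without passing. ALDH1A2 was 4.38-fold (adjusted p = 0.0602) and DRL 2.02-fold higher (0.102), with no overlap of batches. APLNRB was 2.17-fold higher (0.059), with overlap. MSGN1 was detected after thinning, with batches pooled, in 37.4% of GATA5-positive cells above the TA threshold and 11.1% below it. After thinning, GATA5-positive cells below the threshold held a median of 3 of the 9 genes above, and 14 of those cells (19.4%) held none. The 9 were picked as high in GATA5-positive margin cells, so a lower count in this group follows in part from the choice.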

How the data were processed

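The authors deposited 1 table of raw UMI counts for 13902 genes in 1152 wells, with symbols in capitals. Reads were aligned with Bowtie to build Zv9, per the submitters' processing notes, which give no version. Per the labels' protocols, libraries start at the 5′ end of transcripts, keep strand and carry a tag of 5 random bases, so counts of very abundant genes can be compressed. Wells were filled by hand. Doublets were not called, and whether a well held more than 1 cell was not tested. Wells with at least 2000 detected genes were kept. Each comparison fitted 6 sums (class by batch) with edgeR 4.0.16 (quasi-likelihood, TMM, batch as block) in R 4.3.3, on genes with a UMI in at least 5% of the compared cells and with Benjamini-Hochberg adjustment over all of them. The 5% counts the cells of both classes together, so a gene could pass through 1 class alone. GATA5 and TA stayed in the fit and the adjustment and were not counted. The SE is the log2 difference divided by the square root of F. With batch as replicate and as block, p-values set the class difference against how far it varies between these batches. That variation is estimated partly from all genes and may be technical. The batches pair the sums, since both classes come from each experimental batch that the labels name. Alternatives used DESeq2 1.42.0, limma 3.58.1 on mean log2 values, other filters and thresholds, thinning and matched cells. The text names the 12 largest called differences in each direction with 1 direction in all batches and no clone name, every called list member, up to 2 uncalled members per list, and GATA5 and TA. Clone names and further uncalled list members were added after their values were seen. Members, lists and comparisons were chosen with earlier results of these data known. Some genes that this rule names are not reported here. Sequences were not used here.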

Additional observations from a re-analysis of the deposited data

Results flagged for a closer look

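Below the TA threshold, 75 kept cells held at least 2 GATA5 UMIs, 12.3% of 608 (Wilson 95% interval 9.96 to 15.2), in wells outside the main comparison. A further 28 margin cells held exactly 1 GATA5 UMI and entered neither class. Their mean levels lay above those of GATA5-negative margin cells for APLNRB (2.62 against 0.984 UMIs per 10000), in each batch. For DUSP4 the means were 1.30 against 0.408, but in batch 3, which holds 15 of the 28 cells, the values were 0.471 against 0.466.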

How the results depend on the processing

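No called gene reversed direction under any alternative run. For GATA5-positive against GATA5-negative margin cells, 6 of 33 calls held under each of the 21 alternatives, and 75 of 693 pairs of gene and alternative lost the call. The counts higher and lower were 32 and 1 as reported. They were 53 and 8 with the DESeq2 Wald test, 48 and 8 with limma, 69 and 38 with no filter on low counts, 31 and 3 with GATA5 at 1 or more UMIs, 39 and 4 with 3 or more, 40 and 5 with 0.5 or more UMIs per 10000, 42 and 7 with TA at 0.5 or more, 29 and 4 with TA at 2 or more, 37 and 11 thinned, 36 and 2 with 3000 detected genes, 25 and 1 matched in total UMIs, 31 and 2 without wells over 5000 detected genes, 47 and 9 without keratin-rich cells and, added after the data were seen, 22 and 3 matched in TA. Leaving out a batch gave 6 to 59 higher and 0 to 19 lower. For GATA5-negative margin cells against GATA5-negative cells below the threshold (66 and 11) they were 74 and 19 with DESeq2, 81 and 21 with limma, 88 and 34 unfiltered, 65 and 20 with TA at 2 or more and 83 and 19 thinned, and 38 to 71 and 4 to 15 without a batch. For the GATA5-positive groups on either side of the TA threshold (4 and 2) they were 5 and 3 with DESeq2 size factors, 21 and 6 with its Wald test, 34 and 13 unfiltered, 14 and 7 thinned, and 5 to 18 and 1 to 15 without a batch. With no replicate block the 3 comparisons gave 24 and 0, 37 and 2, and 1 and 0, and the batch in the labels pairs the sums. Leaving GATA5 and TA out of the adjustment, added after the data were seen, gave 32 and 1, 66 and 11, and 4 and 1. The causes were not tested. With 3 batches of unstated origin, genes under a few UMIs per 10000 rest on few molecules, and a missed threshold does not show equal levels.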
